A study of Macaca mulatta with 2 samples.

Results

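Complement transcripts were examined in bulk RNA-seq of optic nerve from wild-type, untreated rhesus macaques (*Macaca mulatta*). The gene set held 35 symbols for complement components, receptors and regulators, taken by name from the deposited table. Of these, 33 were among its 16684 genes, whereas *C1R* and *FCN1* were not analysed here. The data comprised 1 condition with 2 libraries, called Rep1 and Rep2 in the table, made from total RNA with an amplifying kit for low RNA input. The nerves were collected postmortem. The study's methods name 1 male of 12 years as their source and the series design names 2 macaques, so whether the libraries share an animal is not settled by these sources. Values are TPM (transcripts per 1000000, corrected for gene length), so that levels of different genes can be compared per length.

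Complement is a cascade of mostly secreted proteins. Recognition molecules (C1q in the classical pathway, mannose-binding lectin, ficolins and collectins in the lectin pathway) bind targets and switch on serine proteases, which cleave C4, C2 and then C3. The alternative pathway, with factor B, factor D and properdin, amplifies the cleavage of C3, and cleavage of C5 starts assembly of the membrane attack complex from C5b, C6, C7, C8 and C9. Membrane proteins such as CD46, CD55 and CD59 and soluble proteins such as C1 inhibitor and factor I hold the cascade in check on host cells. The liver makes most complement protein of the blood, whereas in the nervous system microglia are a main source of C1q, and C1q and C3 are known for their part in synapse removal and in glial responses of the retina and optic nerve in glaucoma.

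The libraries differed widely in depth and content, which touches all values below. Rep1 listed 38.5% of genes at 0 and Rep2 12.5%, and a single Rep1 read carried the TPM of 17.2 Rep2 reads. Read numbers given below are the smallest whole numbers that fit a gene's values in both libraries, so they are lower bounds and exist only for genes above 0 in both. A low bound can come from a factor shared by the read numbers of both libraries, so the bounds do not rank genes by support. Photoreceptor genes stood high in Rep1 (6 retinal markers summed to 3316 TPM, against 5.54 TPM in Rep2), and markers of oligodendrocytes, astrocytes and fibroblasts stood lower there. Summed markers in Rep1 and Rep2 were 44985 and 206889 TPM for oligodendrocytes (5 of 5 markers lower in Rep1), 1095 and 7315 TPM for astrocytes (6 of 6) and 1618 and 15164 TPM for fibroblasts (6 of 6). In bulk samples, fewer cells of a type and less RNA per cell cannot be told apart. With 2 libraries of 1 condition there are no groups to test, and an exact two-sided sign permutation cannot give a p below 0.5, so all comparisons are descriptions with the spread between the libraries.

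Together the 33 complement genes made up 662 TPM in Rep1 and 4588 TPM in Rep2, a mean of 2625 ± 2776 TPM (SD, n = 2 libraries). Of these genes, 18 were above 0 in both libraries, 11 were above 0 in Rep2 alone and 4 were listed at 0 in both. Over all 16684 genes, the same counts were 10168, 4434 and 1991. No gene of the set was above 0 in Rep1 alone, and only 91 of all 16684 genes were. The sum was carried by few genes: *CD59*, *C1S* and *SERPING1* took 60.5% of it in Rep1 and 60.7% in Rep2, and the 10 most abundant members took 92.9% and 90.4%. By function, the 7 regulators of the set held 40.6% of the sum in Rep1 and 50.6% in Rep2. The 5 classical pathway genes held 34.2% and 25.5%, the 3 alternative pathway genes 17.3% and 14.3%, and the 6 lectin pathway genes 1.32% and 1.97%. The genes of C3 and C5 held 1.03% and 2.33%, below the lectin pathway in Rep1 and above it in Rep2. The lectin group counted *COLEC12*, a scavenger receptor of the collectin family, at 0.647% of the sum in Rep1 and 0.650% in Rep2. Without it, C3 and C5 lay above the lectin genes in both libraries. These groups were made after the values were seen, and which of them leads depends on the grouping. With proteases taken as a group of their own, 6 proteases held 42.5% in Rep1 and 32.0% in Rep2, above the regulators in Rep1 and below them in Rep2.

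**Figure D1:**
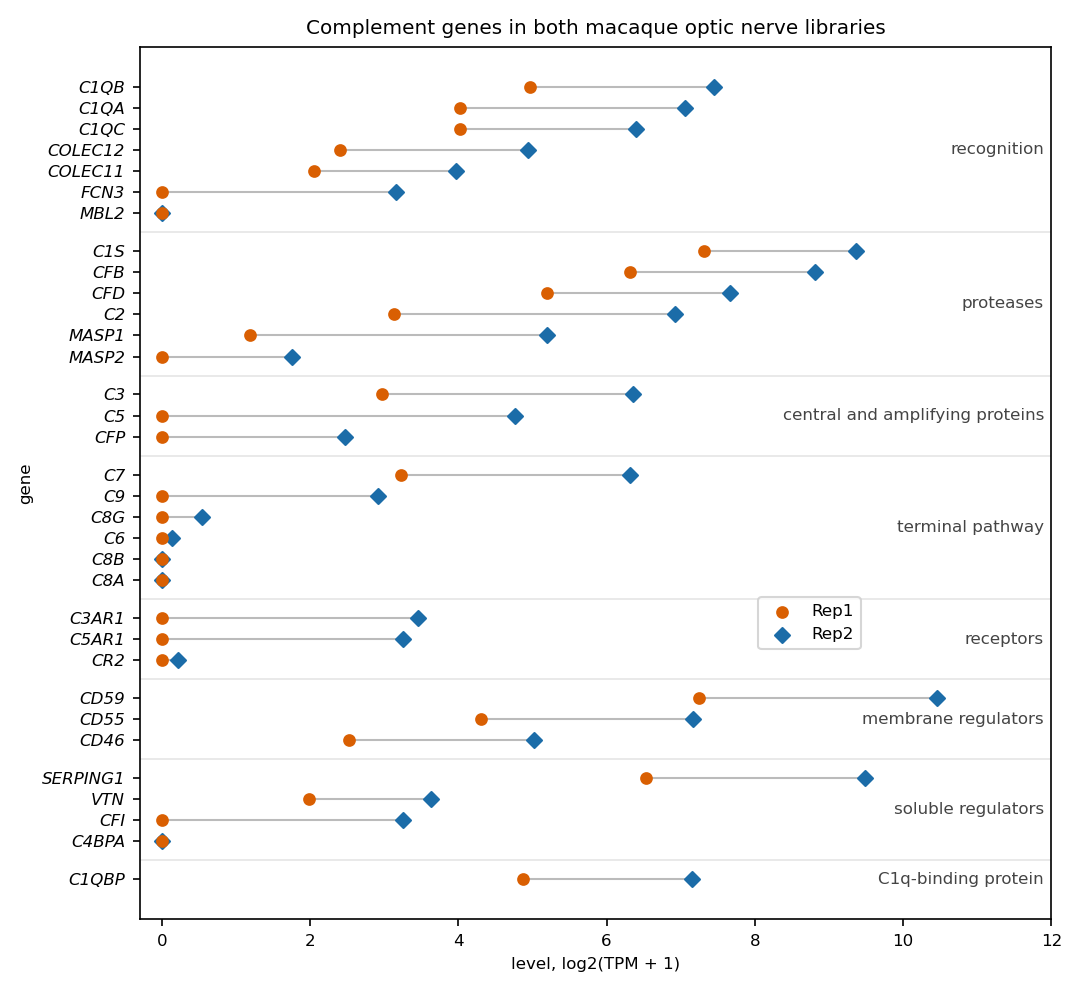
Level of each complement gene on the log2(TPM + 1) scale (horizontal axis) in Rep1 (circles) and Rep2 (diamonds), grouped by role, with a grey line joining the libraries. Every gene above 0 sits further right in Rep2, and 11 genes lie at 0 in Rep1 alone.

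C1q is built from 3 chains, each coded by its own gene, and the genes lie side by side on chromosome 1 of Mmul_10, all on the minus strand. *C1QB* spans 202117786 to 202126077, *C1QC* 202131138 to 202135635 and *C1QA* 202139634 to 202142742, with gaps of 5060 and 3998 bases and no other annotated gene between them. The 200 bases before each annotated gene start are shown because these neighbouring genes code for chains of 1 protein and stood within a narrow range of each other. Sequences are from the Mmul_10 genome of RefSeq, minus strand, 5′ to 3′, and capitals mark the PU box GAGGAA, the core bound by the myeloid factor PU.1, on either strand.
*C1QA*, chr1:202142743-202142942: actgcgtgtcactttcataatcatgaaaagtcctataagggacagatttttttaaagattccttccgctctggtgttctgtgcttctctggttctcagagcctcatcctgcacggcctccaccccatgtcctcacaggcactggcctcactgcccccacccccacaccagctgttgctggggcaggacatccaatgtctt
*C1QC*, chr1:202135636-202135835: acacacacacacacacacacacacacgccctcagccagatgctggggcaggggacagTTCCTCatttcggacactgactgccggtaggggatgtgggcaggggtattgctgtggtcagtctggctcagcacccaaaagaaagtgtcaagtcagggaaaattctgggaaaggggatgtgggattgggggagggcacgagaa
*C1QB*, chr1:202126078-202126277: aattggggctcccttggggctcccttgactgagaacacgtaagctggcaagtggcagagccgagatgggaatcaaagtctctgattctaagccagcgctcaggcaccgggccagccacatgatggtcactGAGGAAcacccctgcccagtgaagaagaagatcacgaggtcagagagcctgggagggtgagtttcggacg
The letters occurred once before *C1QC*, starting 143 bases upstream in reverse complement, once before *C1QB*, starting 70 bases upstream, and not in the window of *C1QA*. Among the 16272 listed protein-coding genes with such a window, 17.7% held a match, and of the 33 complement genes 9 did. A match is a description of letters and not a binding site.

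*C1QB* had 30.3 TPM in Rep1 and 173 TPM in Rep2, or 102 ± 101 TPM (SD, n = 2), percentile 89.1 among 14693 genes that were above 0 in 1 library or both. *C1QA* had 15.2 TPM in Rep1 and 132 TPM in Rep2 (73.7 ± 82.7 TPM). *C1QC* had 15.3 TPM in Rep1 and 83.3 TPM in Rep2 (49.3 ± 48.1 TPM). All 3 chains were lower in Rep1. The lower bound of reads there was 31 for *C1QB* and 3 each for *C1QA* and *C1QC*, which does not show weaker support for the latter. Within a library, *C1QC* was 0.505 times *C1QB* in Rep1 and 0.482 times in Rep2, ratios within 1.05-fold of each other. *C1QA* was 0.501 times *C1QB* in Rep1 and 0.765 times in Rep2. *C1QB* was thus the most abundant chain in both libraries, while *C1QA* and *C1QC* were nearly level in Rep1 and apart in Rep2.

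C1q is made by microglia and macrophages, so their markers were set beside it. Of 10 markers, 9 were lower in Rep1, and the list summed to 207 TPM in Rep1 and 363 TPM in Rep2. The markers did not move as 1 block. *CSF1R*, the receptor of colony-stimulating factor 1, had 61.3 TPM in Rep1 and 62.2 in Rep2, and *AIF1* (IBA1) stood at 113 and 64.5 TPM. *TYROBP*, a signalling adaptor of myeloid cells, stood at 3.65 and 45.4 TPM, and *TMEM119*, *CD163* and *MRC1* were listed at 0 in Rep1. The ratio of *C1QB* to *CSF1R* was therefore 0.494 in Rep1 and 2.78 in Rep2, 5.62-fold apart, whereas its ratio to *TYROBP* was 8.30 in Rep1 and 3.81 in Rep2, a difference in the opposite direction. The part of cell content in the C1q levels was not tested.

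The other recognition molecules were lower than C1q. *COLEC12*, a scavenger receptor of the collectin family, had 4.28 TPM in Rep1 and 29.8 TPM in Rep2. *COLEC11*, which codes for the soluble collectin CL-K1, stood at 3.14 and 14.7 TPM. *FCN3*, which codes for ficolin-3, was listed at 0 in Rep1 but reached 7.94 TPM in Rep2. Its annotated span overlaps that of *CD164L2* on the same strand, so reads from any shared exon bases could have been assigned to either gene. Whether the genes share such bases was not examined. *MBL2*, which codes for mannose-binding lectin, a liver protein, was listed at 0 in both libraries.

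Among the proteases, *C1S* was the most abundant. It codes for the C1s subunit, which C1r activates and which cleaves C4 and C2, and it lies on chromosome 11 from 7248992 to 7259592. Its level was 158 TPM in Rep1 and 661 TPM in Rep2 (409 ± 356 TPM, SD, n = 2, percentile 97.6), resting on at least 106 and 7635 reads. It was the highest complement gene in Rep1, at 23.8% of the summed complement TPM, and ranked 3 in Rep2, at 14.4%. *SERPING1*, which codes for the C1 inhibitor that inactivates C1r and C1s, lies on chromosome 14 from 15940630 to 15957675. Its level was 91.7 TPM in Rep1 and 718 TPM in Rep2 (405 ± 443 TPM, percentile 97.6), resting on at least 91 and 12239 reads. The protease was thus 1.72 times its inhibitor in Rep1 and 0.921 times in Rep2, so the libraries differed in which of them was higher.

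*CFB* and *C2* code for the homologous proteases of the alternative and the classical C3 convertases and lie next to each other on the minus strand of chromosome 4. *C2* spans 137550339 to 137568916 and *CFB* 137543938 to 137549958, and the gap between them is 380 bases. *CFB* had 78.9 TPM in Rep1 and 448 TPM in Rep2 (264 ± 261 TPM, SD, n = 2, percentile 96.1), on at least 61 and 5958 reads. *C2* had 7.73 TPM in Rep1 and 121 TPM in Rep2 (64.3 ± 80.0 TPM), on at least 7 and 1880 reads. *CFB* was higher than *C2* in both libraries, 10.2-fold in Rep1 and 3.71-fold in Rep2. *CFD*, which codes for the protease that cleaves factor B, had 35.6 TPM in Rep1 and 202 TPM in Rep2 (119 ± 117 TPM), on at least 36 and 3503 reads. The ratio of *CFB* to *CFD* was 2.21 in Rep1 and 2.22 in Rep2, the closest of the 12 ratios of gene pairs examined, which were chosen after the values were seen.

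The proteases of the lectin pathway were low. *MASP1* had 1.28 TPM in Rep1, resting on at least 1 read, and 35.5 TPM in Rep2, a ratio of 27.7, the widest among the 18 members above 0 in both libraries. *MASP2* was listed at 0 in Rep1 but reached 2.37 TPM in Rep2, and its annotated span overlaps that of *TARDBP* on the opposite strand. Reads from exon bases shared by both genes could not be told apart unless strand was used in counting. Whether the genes share such bases was not examined.

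*C3*, the protein on which all pathways converge, lies on chromosome 19 from 6596887 to 6638613. It had 6.81 TPM in Rep1, resting on at least 1 read, and 80.8 TPM in Rep2 (43.8 ± 52.3 TPM, SD, n = 2, percentile 77.9). *C3* was below *CFB* in both libraries, by a ratio of 11.6 in Rep1 and 5.55 in Rep2. *C5*, the source of the anaphylatoxin C5a and of C5b, was listed at 0 in Rep1 but reached 26.3 TPM in Rep2, the highest Rep2 level of the 11 genes at 0 in Rep1. *CFP*, which codes for properdin, was listed at 0 in Rep1 but reached 4.53 TPM in Rep2.

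The terminal components were uneven. *C7*, which anchors the growing complex in the membrane, had 8.31 TPM in Rep1 and 79.0 TPM in Rep2 (43.6 ± 50.0 TPM, SD, n = 2), close to *C3* in both libraries, with a ratio of 1.22 in Rep1 and 0.977 in Rep2. It overlaps 2 uncharacterized genes on the opposite strand, and *C6* overlaps 1. *C9*, the pore-forming subunit, was listed at 0 in Rep1 but reached 6.56 TPM in Rep2. *C8G* (0.449 TPM) and *C6* (0.0982 TPM) were above 0 in Rep2 only, and *C8A* and *C8B*, which code for the other chains of C8, were listed at 0 in both libraries. Only *C7* of the 6 terminal genes was therefore above 0 in both libraries. Of 7 liver and plasma protein genes, 4, with *ALB* among them, were listed at 0 in both libraries, all 7 were listed at 0 in Rep1, and the highest in Rep2 was *SERPINC1* at 1.46 TPM.

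The receptors were low and were seen in Rep2 alone. *C3AR1*, the receptor of C3a, stood at 9.96 TPM in Rep2, *C5AR1*, a receptor of C5a, at 8.54 TPM, and *CR2*, a receptor of C3 fragments on B cells and follicular dendritic cells, at 0.165 TPM. All 3 were listed at 0 in Rep1. Many genes of such levels were listed at 0 in Rep1, among them 29.2% of the 1642 genes above 5 and up to 10 TPM in Rep2. All 5 members in that range (*FCN3*, *C9*, *C3AR1*, *C5AR1* and *CFI*) were at 0 in Rep1. Above 10 and up to 30 TPM, 16.2% of 3190 genes were at 0 in Rep1, and 1 of 4 members, *C5*. A listed 0 in Rep1 therefore does not show that a transcript was missing.

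*CD59*, which stops C9 from joining the membrane attack complex, had the highest mean of the set. It lies on chromosome 14 from 31733404 to 31756645. Its level was 151 TPM in Rep1 and 1408 TPM in Rep2 (779 ± 889 TPM, SD, n = 2, percentile 99.0), resting on at least 59 and 9472 reads. It took 22.8% of the summed complement TPM in Rep1, where it ranked 2, and 30.7% in Rep2, where it ranked 1. *CD55*, or decay-accelerating factor, which takes C3 convertases apart, had 18.8 TPM in Rep1 and 143 TPM in Rep2 (81.0 ± 87.9 TPM). *CD46*, the cofactor for cleavage of C3b by factor I, had 4.77 TPM in Rep1 and 31.3 TPM in Rep2 (18.1 ± 18.8 TPM). The order *CD59*, *CD55*, *CD46* was the same in both libraries. *CD59* was 8.01 times *CD55* in Rep1 and 9.83 times in Rep2, and 31.6 and 44.9 times *CD46*.

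Among the other soluble regulators, *VTN*, which codes for vitronectin, had 2.97 TPM in Rep1, resting on at least 1 read, and 11.4 TPM in Rep2. *CFI*, the protease that cleaves C3b and C4b, was listed at 0 in Rep1 but reached 8.49 TPM in Rep2. *C4BPA*, which codes for a chain of C4b-binding protein, was listed at 0 in both libraries, although it lies in the same stretch of chromosome 1 as *CD55*, *CR2* and *CD46*. *C1QBP*, which codes for a mostly mitochondrial protein first found as a binder of C1q, had 28.3 TPM in Rep1 and 142 TPM in Rep2 (85.0 ± 80.1 TPM, SD, n = 2). It overlaps *RPAIN* on the opposite strand.

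**Figure D2:**
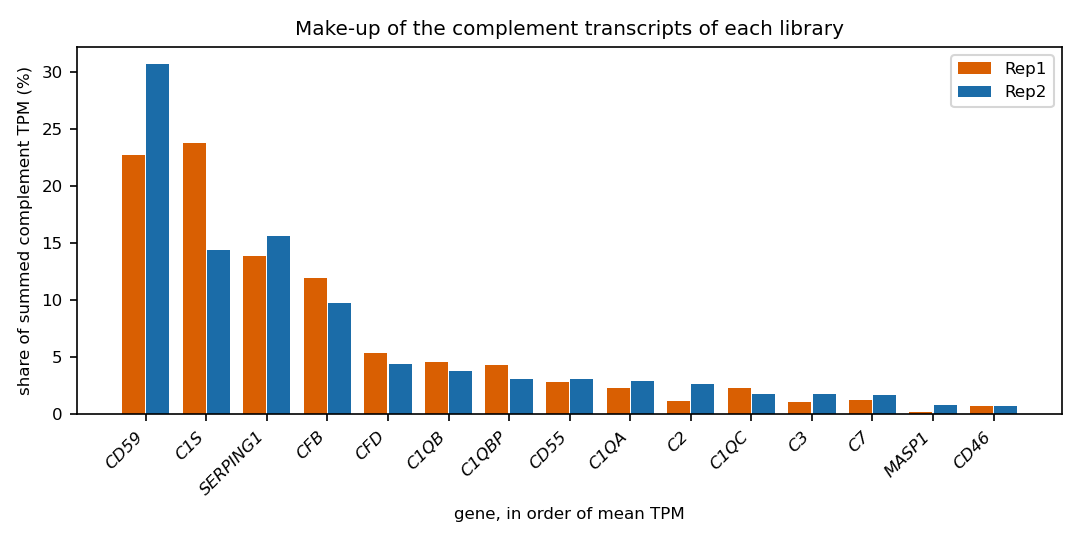
Share of the summed complement TPM of each library (vertical axis, percent) taken by the 15 complement genes with the highest mean, in Rep1 (orange) and Rep2 (blue). *C1S* has the tallest bar in Rep1 at 23.8% and *CD59* in Rep2 at 30.7%.

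In the order of mean TPM, the 29 genes above 0 make 28 neighbouring pairs. The difference between neighbours on the log2(TPM + 1) scale exceeded its SD over the libraries in 8 of them. Among the leading genes, *C1S* was not separated from its neighbours, with 0.51 ± 0.82 for *CD59* minus *C1S* and 0.33 ± 0.63 for *C1S* minus *SERPING1* (log2, SD, n = 2). *CD59* and *SERPING1* are not neighbours in this order and were not compared in this way. *CD59* was the higher in both libraries, at 151 against 91.7 TPM in Rep1 and 1408 against 718 TPM in Rep2. *SERPING1* was above *CFB* by 0.45 ± 0.33, *CFB* above *CFD* by 1.14 ± 0.016 and *CFD* above *C1QB* by 0.22 ± 0.0039. *C1QB* was above *C1QBP*, *CD55* above *C1QA*, *C7* above *MASP1*, *CD46* above *COLEC12* and *COLEC11* above *VTN* by more than the spread as well. The remaining pairs did not differ beyond it, and below *C3AR1* no pair could, since all genes there were listed at 0 in Rep1. Over the 18 genes above 0 in both libraries, log2(TPM + 1) correlated between the libraries with Pearson r = 0.945 and Spearman rho = 0.957. Over all 10168 genes above 0 in both, the same values were 0.597 and 0.604. These correlations are across genes, which share their libraries and are not independent replicates.

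The libraries were next compared gene by gene, as the difference of log2(TPM + 1) in Rep1 minus Rep2. Of the 18 complement genes above 0 in both libraries, 18 were lower in Rep1, against 66% of the 10168 such genes, and 18 were at least 2-fold lower, against 49.6%. Their median difference was -2.52, against -0.98 for all such genes, and it ran from -4.0 for *MASP1* to -1.64 for *VTN*. The other 11 complement genes were above 0 in Rep2 alone, so that their direction was fixed by their 0 in Rep1. With them, 26 of 29 genes were at least 2-fold lower, against 51.3% of the 14693 genes above 0 anywhere, of which 75.9% were lower by any amount, and 0 were at least 2-fold higher, against 14.8%. The median was then -2.54, against -1.07 for all genes. Among the same 18 genes, the ratio of Rep2 to Rep1 TPM ran from 3.84 for *VTN* to 27.7 for *MASP1* with a median of 6.77, whereas the median of all 10168 such genes was 2.28. The median log2 difference of all genes above 0 in Rep2 widened with their Rep2 level. The Rep2 value is itself part of that difference, and a low one limits how negative the difference can be. The trend is therefore partly set by the grouping, which also includes genes at 0 in Rep1. Above 100 TPM in Rep2 it was -2.02 for 1548 genes, against -2.68 for the 10 complement genes there. Above 30 and up to 100 TPM it was -1.71 for 3001 genes, against -3.10 for 5 complement genes.

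The libraries were also set apart by a general shift of -1.19 on the log2 scale (Rep1 minus Rep2, median of genes above 0 in both). After median-of-ratios scaling, which removes that shift, 18 of the 18 complement genes above 0 in both were lower in Rep1, against 50% of such genes, and 15 were at least 2-fold lower, against 28.1%. Their median was -1.44. The 50% is fixed by the scaling, which sets the median of all such genes to 0. With the 11 genes at 0 in Rep1, the number at least 2-fold lower was 23, against 33.8% of all genes, and 0 were at least 2-fold higher, against 23.7%. Over markers above 0 in both libraries, the median before scaling was -3.16 for fibroblasts, -2.62 for astrocytes, -2.46 for oligodendrocytes, -2.01 for microglia and macrophages and -1.35 for endothelial cells, and 1.95 for retinal genes. The median of the complement genes lay within the range of those of the marker lists other than retina. Whether cell content, depth or retinal RNA in Rep1 had a part in this was not tested.

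**Figure D3:**
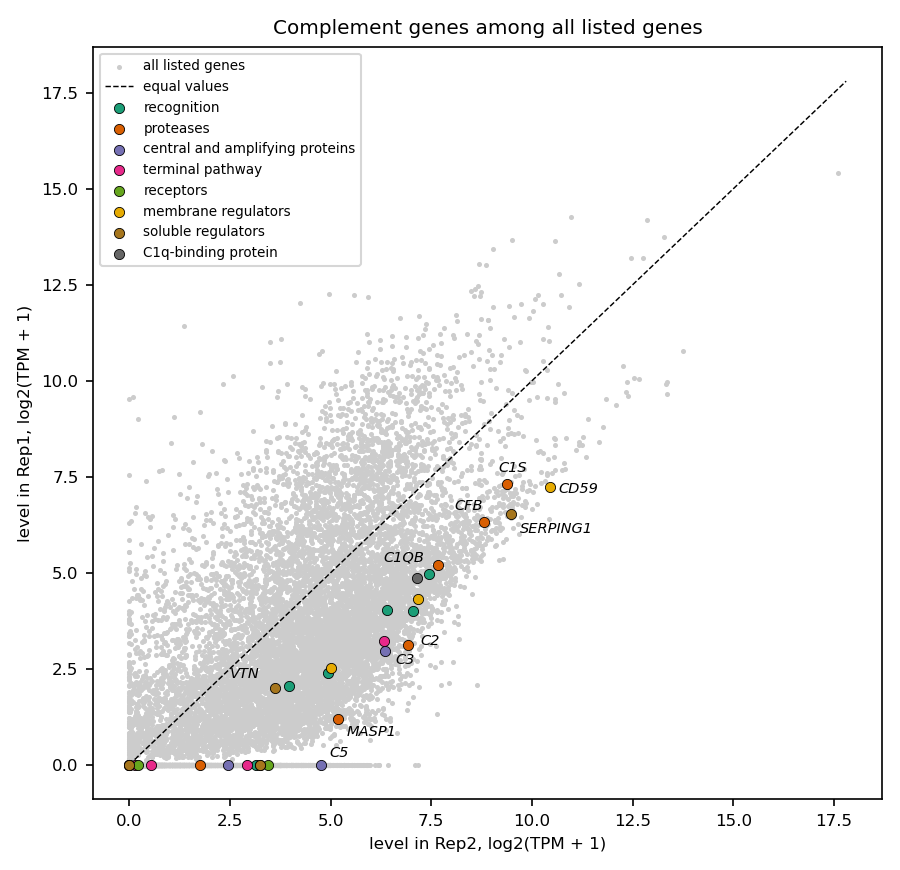
Level of every listed gene in Rep2 (horizontal axis) and Rep1 (vertical axis), both as log2(TPM + 1), with complement genes coloured by role and the dashed line marking equal values. The 18 complement genes above 0 in both libraries lie below the line, and 11 lie at 0 in Rep1.

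**Figure D4:**
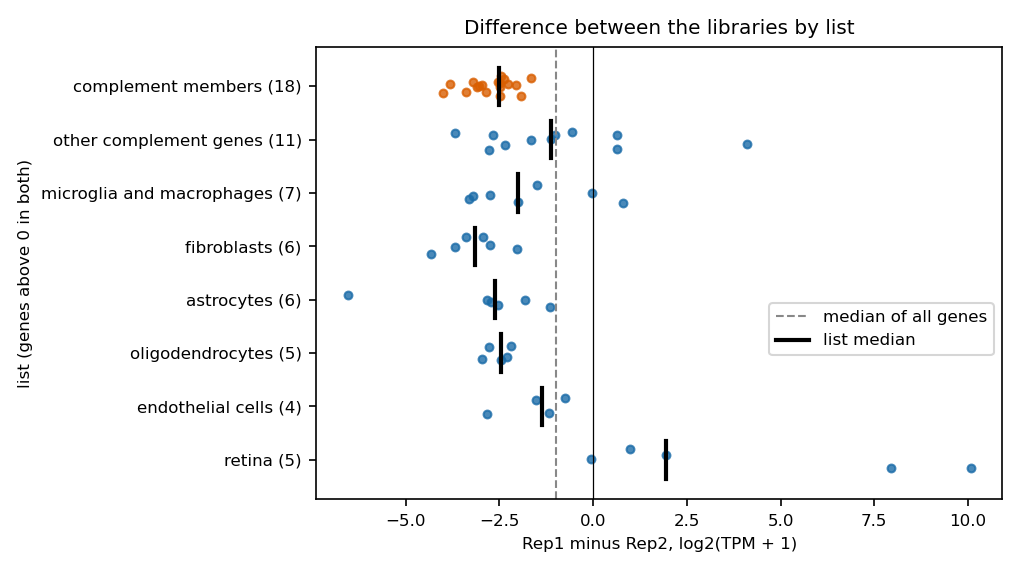
Difference between the libraries, Rep1 minus Rep2 on the log2(TPM + 1) scale, for each gene above 0 in both libraries (points) of the complement set, of other complement genes and of cell markers, with black bars for list medians and a dashed line for the median of all such genes at -0.98. The complement median of -2.52 lies left of that of retinal genes and among those of the other cell marker lists.

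Ratios within a library do not depend on how the library was scaled. Ratios of *C2* and *C3* to *CFB* differed by 2.75-fold and 2.09-fold between the libraries, both being lower relative to *CFB* in Rep1, where they rested on at least 7 and 1 reads. The ratio of *SERPING1* to *DCN*, a fibroblast marker, was 0.0922 in Rep1 and 0.0683 in Rep2.

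**Figure D5:**
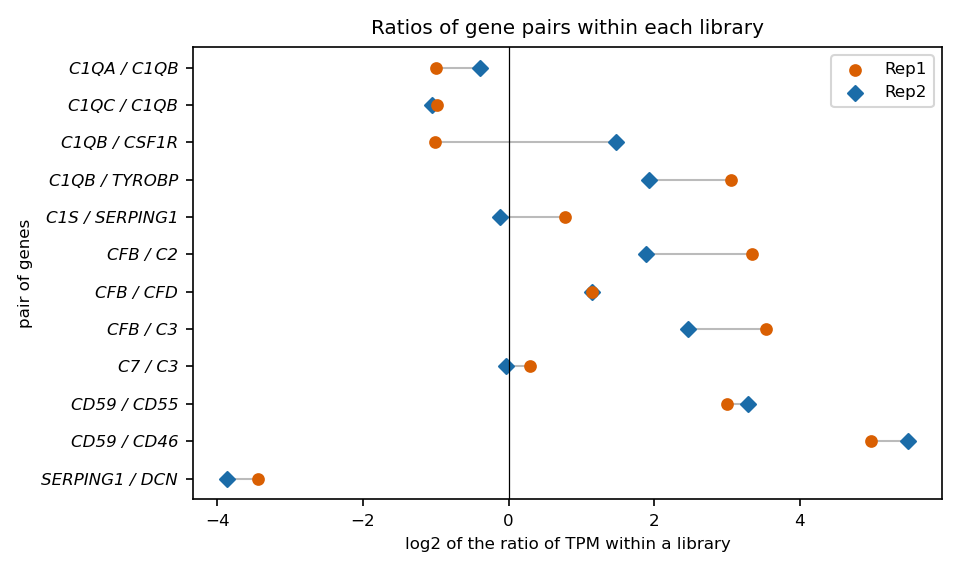
Ratio of TPM of gene pairs within Rep1 (circles) and Rep2 (diamonds), on a log2 scale, with 0 marking equal levels. *CFB* to *CFD* coincide in the libraries, with untransformed ratios of 2.21 and 2.22, and *C1QB* to *CSF1R* lie furthest apart, on either side of 0.

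Other genes of the pathway were taken from a list of 34, of which 27 were listed in the table and 20 were above 0 in at least 1 library. Of these 20, 9 were at 0 in Rep1, against 4434 of all 14693 genes above 0 in at least 1 library. Of the 11 above 0 in both libraries, 8 were lower and 3 higher in Rep1, against 66% lower among all 10168 such genes. At least 2-fold lower were 7, against 49.6%, and 1 was at least 2-fold higher, against 2106 of 10168. The median difference was -1.13, against -0.98 for all such genes. *CLU*, which codes for clusterin, an inhibitor of the terminal complex and a chaperone, exceeded every member of the set, having 809 TPM in Rep1 and 10446 TPM in Rep2 (5627 ± 6814 TPM, SD, n = 2). *CALR*, a receptor partner of C1q, stood at 46.8 TPM in Rep1 and at 304 TPM in Rep2, and *LRP1*, a large endocytic receptor, at 67.0 and 136 TPM. The chains of complement receptor 3 differed, with 15.4 and 34.9 TPM of *ITGB2*, whereas *ITGAM* was listed at 0 in Rep1 but reached 13.6 TPM in Rep2. *VSIG4*, a macrophage receptor of C3b, stood at 2.39 and 22.2 TPM. The genes higher in Rep1, named after their values were seen, were *CSMD3* (19.4 TPM in Rep1 and 0.181 TPM in Rep2), *SUSD4* (14.7 and 8.97 TPM) and *SCARF1* (2.06 and 0.981 TPM).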

How the data were processed

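Total RNA of 2 macaque optic nerve libraries was sequenced. Per the study's methods and the submitters' processing notes, the authors checked reads with FastQC 0.11.9, trimmed them with Trim Galore 0.6.6, mapped them to Mmul_10 with STAR 2.7.1a and counted them per gene with featureCounts 1.5.3. The authors then converted counts to TPM. The deposited table has 2 columns of TPM for 16684 genes, each summing to 1000000. Gene lengths, use of strand and treatment of multi-mapped reads are not given in the sources used here. The column names match no sample title, so both were used as replicates of the single condition.

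Analysis used Python 3.11 with pandas 2.3.3, numpy 2.4.6 and scipy 1.17.1, and figures used matplotlib 3.10.9. Differences were taken as log2(TPM + 1), which understates those of low genes. A 2-fold difference is one of at least 1 on that scale. Read numbers came from the ratio of a gene's values, taken as whole within 1e-12 and with a product up to 100000000, which held for 99.9% of 10168 genes. Coordinates came from RefSeq annotation of Mmul_10, in which all 16684 symbols were found. Overlaps between genes were taken over whole gene spans, introns included. Members, lists and alternatives were chosen with earlier results of these data known, and pathway groups and gene pairs after the values were seen. The named genes were all listed members and, of the other pathway list, the 6 with the highest mean, *CLU*, *ITGAM* and *ITGB2*, except that 1 gene of that list, though counted in it, is not reported here. *CSMD3*, *SUSD4* and *SCARF1* of that list fall outside this rule and were named after their values were seen. The neutrophil and monocyte markers were listed at 0 in Rep1, and 3 of 4 were above 0 in Rep2, summing to 2.96 TPM. Scaling and read recovery were tested on simulated data. No p-value was computed, and TPM gives no counting interval per gene.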

Additional observations from a re-analysis of the deposited data

How the results depend on the processing

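No paired analysis was possible because both libraries belong to 1 group. There were 122 recomputed values other than a single library. They covered median-of-ratios scaling, leaving out the 10 most abundant genes, geometric means, a pseudocount of 0.1 and minimum levels. Taking only genes above 0 in both libraries was added after seeing the data. None of the 122 was classed as moved or changed sign. Counts were classed by a fixed ratio to their main value, and all other values by the spread between the libraries. That spread is wide, with an SD near the mean for most genes, and each of 2 libraries lies within 1 SD of their mean, so this says little about stability. The median difference of the complement genes ran from -2.97 with a pseudocount of 0.1 to -1.70 after median-of-ratios scaling, and the number at least 2-fold lower in Rep1 from 18, when only genes above 0 in both libraries were taken, to 28. Leaving out each library in turn gave 18 to 29 members above 0, because Rep1 lists 11 members at 0 that Rep2 does not. The same omission gave 14 to 26 neighbouring pairs in the order of the mean, against 12 in the same order in both libraries. Of the other 16 pairs, 9 were tied at 0 in Rep1 and 7 stood in opposite order in the libraries. The sum of the complement genes was 662 TPM in Rep1 alone and 4588 TPM in Rep2 alone. Rep1 gives little precision for low genes: 16.2% of genes above 10 and up to 30 TPM in Rep2 were at 0 in it. For *MASP1* and *C3*, at 35.5 and 80.8 TPM in Rep2, the lower bound in Rep1 was 1 read. The true read numbers may be higher, so this bound is no measure of precision.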
